A study of Mus musculus with 25 samples.

Results

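Of the 7 wild-type male atrial libraries of the series, 3 held almost no messenger RNA of Bmp10 and 4 held a high level of it. These 7, of 25 libraries in all, were placed in a Bmp10-low and a Bmp10-high set by their measured Bmp10 level, with the limit at 1000 CPM, read counts scaled to library size. The libraries were thus selected on a readout. What follows asks which genes other than Bmp10 lay apart in the same way, and whether they followed Bmp10 in the 18 libraries that played no part in the choice. The Bmp10-low set is WM1, WM2 and WM3, whose library names begin with LA. The Bmp10-high set is WM4, whose name begins with RA, and WM5, WM6 and WM7, which have CGI names.

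All 7 libraries are labelled as whole atrium of untreated wild-type male mice, 60 to 90 days old. The other 18 are 5 libraries of wild-type females, 5 of males and 8 of females labelled as PAM knockout, the gene of a peptide-amidating enzyme that atrial myocytes make in large amounts. Pam lay at 1409 (WF10) to 6245 CPM in the 12 wild-type and at 295 to 520 CPM in the 13 knockout libraries. The sources used here do not give the allele or any driver of the knockout, nor what LA, RA and CGI stand for, and the labels name no side of the heart. RNA was taken up in Trizol from individual atria, made into stranded TruSeq libraries and read as pairs of 75 bases on a NextSeq. The numbers that end the library names start again at S1 for LA, CGI and MaleKOAtrium names (LA1_S1, CGI-1_S1 and MaleKOAtrium-1_S1). Whether libraries of these names were sequenced together was not tested. The sources do not say whether any 2 libraries come from 1 mouse, and the p-values below measure the spread between libraries only. Names LA11 (KF16) and RA11 (KF15), both of knockout females, share a number, and the fits below treat them as independent. Depth was 4303451 to 7266010 reads in the 7 libraries and 2246887 (WF10) to 8098602 in the others. The least deep pair of libraries, WF10 and KM01, had 30.2% and 18.5% of CPM in mitochondrial genes.

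Bmp10 is a secreted ligand of the bone morphogenetic protein family. In the adult mouse it is made by myocytes of the right atrium and acts on endothelial cells through the receptor ALK1 (gene Acvrl1), BMPR2 and endoglin. The sinoatrial node, the pacemaker of the heart, lies in the wall of the right atrium where the great veins enter, and is known for the transcription factors Shox2 and Tbx3 and the pacemaker channel Hcn4.

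Before the contrast itself, the levels of the selecting gene were as follows. Bmp10 lay at 0.433 CPM in WM1, 1.25 in WM2 and 0.929 in WM3, against 1999 in WM4, 6026 in WM5, 6180 in WM6 and 3121 in WM7. The nearest libraries on either side of the limit were thus WM2 and WM4, and WM4 was the lowest of the Bmp10-high set. Among the other 18 libraries 7 lay under 1000 CPM, from 1.26 in KF14 to 669 in WF12, and 11 lay at 4107 CPM or more.

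Library names and the level of Bmp10 did not always go together outside the wild-type males. KF17 has an LA name, yet its Bmp10 was at 4811 CPM. KF18 has an RA name, with Bmp10 at 444 CPM. The library labelled LA11, KF16, had Bmp10 at 76.5 CPM, so that the 3 LA-named libraries outside wild-type males ranged from 1.26 to 4811 CPM of Bmp10. For that reason the names served for 1 comparison only, and the levels of Bmp10 for the other. As to tissue, the atrial light chain gene Myl7 was at 3232 to 5929 CPM and the natriuretic peptide gene Nppa at 1018 to 1780 CPM in the 7 wild-type males. Isl1 of the sinoatrial node and Irx4 of the ventricle were not analysed here.

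Start-site sequences of 3 genes are shown because the genes sit at the centre of the results, namely Bmp10 itself, the pacemaker channel gene Hcn4 and Cd207, the gene with the largest difference. They run from 250 bases before to 50 after the start of the RefSeq gene on GRCm38.p6. Bmp10 is at chr6:87428744-87429043 on the plus strand, Hcn4 at chr9:58822699-58822998 on the plus strand and Cd207 at chr6:83677808-83678107 on the minus strand. Capitals mark matches, on either strand, to short motifs of factors known in the atrium, AGGTGT for T-box factors such as TBX3 and TBX5 and AAGTG for NKX2-5.
Bmp10: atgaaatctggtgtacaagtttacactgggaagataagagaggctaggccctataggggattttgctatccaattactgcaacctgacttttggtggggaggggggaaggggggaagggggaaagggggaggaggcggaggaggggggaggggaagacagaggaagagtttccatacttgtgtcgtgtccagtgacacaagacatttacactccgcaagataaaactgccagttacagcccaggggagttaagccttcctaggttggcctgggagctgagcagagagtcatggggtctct
Hcn4: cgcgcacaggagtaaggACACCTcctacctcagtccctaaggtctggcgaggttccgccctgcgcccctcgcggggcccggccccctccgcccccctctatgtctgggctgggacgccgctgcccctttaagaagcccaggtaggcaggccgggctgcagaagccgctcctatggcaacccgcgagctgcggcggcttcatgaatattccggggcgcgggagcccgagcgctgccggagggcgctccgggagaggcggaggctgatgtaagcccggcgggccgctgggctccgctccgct
Cd207: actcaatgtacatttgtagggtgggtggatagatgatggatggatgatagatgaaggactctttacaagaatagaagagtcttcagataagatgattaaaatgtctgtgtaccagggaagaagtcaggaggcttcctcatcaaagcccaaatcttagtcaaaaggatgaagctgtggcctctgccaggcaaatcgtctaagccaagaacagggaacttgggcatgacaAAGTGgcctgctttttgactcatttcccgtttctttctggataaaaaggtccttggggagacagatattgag
The Hcn4 sequence holds 1 T-box match, on its minus strand, and the Cd207 sequence 1 NKX2-5 match. No match lay in the Bmp10 window, which says only that these letters are not in it. Of the 10750 measured genes with a sequence in the table, 10.6% hold the T-box letters and 42.9% the NKX2-5 letters. Of the 330 genes higher in Bmp10-high libraries (defined next) that have one, 9.39% and 42.7% do, and of the 55 higher in Bmp10-low libraries 14.5% and 49.1%.

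A gene was said to be higher in one set when all its values there lay beyond all values of the other set and the group means of log2(CPM + 1) differed by at least 1, a 2-fold difference. Since Bmp10 chose the libraries, no test was made in this contrast and the counts are a description. Of the 14456 genes other than Bmp10, 3094 (21.4%) lay higher in all 4 Bmp10-high libraries than in any Bmp10-low one, and 1084 (7.5%) lay lower in all 4. With the 2-fold limit, 476 genes (3.29%) were higher in Bmp10-high and 77 (0.533%) higher in Bmp10-low libraries. Of the 476, 248 (1.72% of all genes) were also at least 2-fold higher in WM4 taken alone, the 1 Bmp10-high library of the same name set as WM1 to WM3. Of the 77, 5 (0.0346% of all genes) kept a 2-fold difference in WM4 alone.

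Scaling bears on these counts. The median gene was 0.17 log2 units higher in Bmp10-high libraries as deposited, and 0.01 with median-ratio scaling, which left 279 genes higher in Bmp10-high, all of them among the 476, and 146 higher in Bmp10-low libraries. Transcript length also went with the split. Genes with a longest transcript over 5000 bases had a median difference of 0.42 (3195 genes), and those under 1500 bases one of -0.13 (1874 genes). The 476 genes had a median length of 4694 bases and the 77 one of 2167 bases, against 3328 over all genes with a length. The part of length in the results was not tested.

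The largest differences were in genes of several kinds of cells. Cd207 encodes langerin, a lectin known from Langerhans cells. It was at 2.82, 1.60 and 0.232 CPM in WM1, WM2 and WM3, and at 21.8 CPM in WM4, 143 in WM5, 212 in WM6 and 181 in WM7. No value overlapped, WM4 lay between, and the group means were 1.55 ± 1.29 (SD, n = 3) and 140 ± 83.5 CPM (SD, n = 4). The means of log2(CPM + 1) differed by 5.53, and differences given as log2 below are on that scale. Vsig4, a complement receptor gene of resident macrophages, was at 3.49 to 6.23 CPM in the Bmp10-low libraries, 22.4 CPM in WM4 and 115 to 171 CPM in WM5 to WM7. Both genes were thus highest in the 3 CGI-named libraries. Other macrophage genes differed among themselves. Adgre1 was at 32.1 to 42.7 CPM in Bmp10-low and 32.9 to 58.6 CPM in Bmp10-high libraries, and C1qa at 115 to 157 and 118 to 139 CPM, while Cx3cr1 lay apart.

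Hamp encodes hepcidin, the peptide hormone that blocks cellular iron export. Its levels were 23.4 CPM in WM1, 19.9 in WM2 and 3.25 in WM3, then 57.7 in WM4, 133 in WM5, 183 in WM6 and 155 in WM7, a difference of log2 3.24. Adm, the gene of the vasodilator peptide adrenomedullin, was nearly the same in the 3 Bmp10-low libraries, at 8.23, 8.54 and 9.29 CPM. It was at 34.7, 84.1, 102 and 55.6 CPM in WM4 to WM7, a difference of log2 2.75. The order of the 4 Bmp10-high libraries was the same for Adm as for Bmp10, with WM4 lowest and WM6 highest.

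Several others encode membrane proteins of excitable cells. Ryr3, an intracellular calcium release channel, was at 0.650, 0.890 and 1.16 CPM in the Bmp10-low libraries and at 34.0, 55.7, 40.3 and 18.8 CPM in WM4 to WM7. Cntn2, a cell adhesion molecule known from the cardiac conduction system, was at 0.867, 0.356 and 0.232 CPM and at 20.7, 38.3, 16.3 and 24.5 CPM. Cacna2d2, an auxiliary calcium channel subunit, was at 4.12, 2.14 and 2.09 CPM and at 98.9, 64.5, 38.2 and 31.7 CPM. Unlike Cd207, these 3 genes were as high in WM4 as in the CGI-named libraries, and for Cacna2d2 WM4 was the highest of all. The differences were log2 4.24 for Ryr3, 4.08 for Cntn2 and 3.87 for Cacna2d2. The other 8 of the 15 largest were Gsg1l, Pvalb, Cpne5, Hcn4, Arpp21, Cacna1d, Slc26a10 and Cxcl13, with differences from 2.62 (Cxcl13) to 3.47 (Gsg1l).

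**Figure D1:**
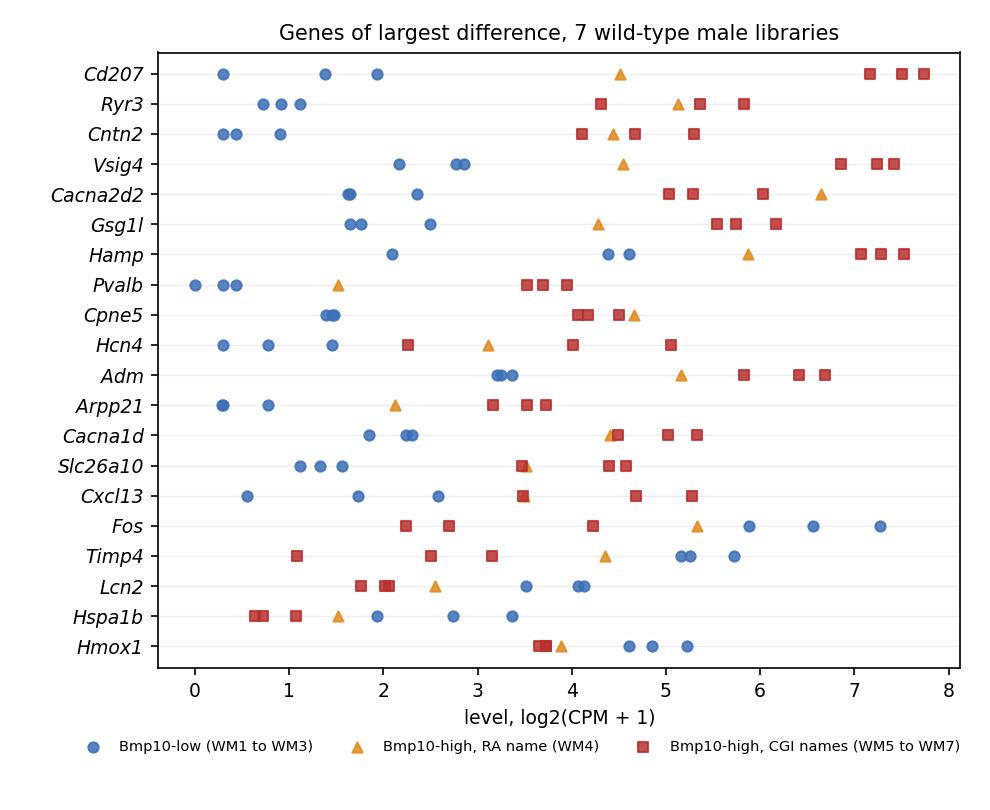
Levels as log2(CPM + 1) of the 15 genes with the largest difference upward and the 5 downward that also held in WM4, 1 point per wild-type male library. Circles (Bmp10-low) and the other marks (Bmp10-high) do not overlap in any row, since the choice of genes required it, and WM4 (triangle) lies between the sets for Cd207, Vsig4 and Hamp but not for Cacna2d2 and Cpne5.

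The sinoatrial node and venous pole list had 25 members measured, and 10 were higher in Bmp10-high libraries, against 3.29% of all genes. A further 6 did not overlap but differed by less than 2-fold, 0 were higher in Bmp10-low libraries, and the list median was 0.70 against 0.17 over all genes. The same number, 10, was found with median-ratio and with quantile scaling. Like the other lists, this one was chosen with earlier results of these data known. It holds Cacna2d2, Hcn4, Cpne5 and Cacna1d of the largest differences above, so its share is a description and no independent support. Hcn4, the main pacemaker channel, was at 1.73, 0.712 and 0.232 CPM in WM1 to WM3 and at 7.65, 32.2, 3.79 and 15.1 CPM in WM4 to WM7. No value overlapped, but WM6, which had the highest Bmp10, had the lowest Hcn4 of the 4. Shox2, which specifies nodal cells, was at 3.47, 3.20 and 1.86 CPM and at 4.67, 17.1, 5.75 and 12.5 CPM. Tbx3, a repressor of working myocyte genes in the node, was at 1.52, 1.60 and 0.697 CPM and at 2.80, 7.43, 5.19 and 5.25 CPM. WM5 and WM7 were thus the highest 2 libraries for Hcn4 and Shox2, and WM5 was the highest for Tbx3.

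Calcium channels of pacemaker cells followed. Cacna1d, the L-type channel that opens at low voltage, was at 2.60, 3.74 and 3.95 CPM and at 20.2, 39.2, 31.4 and 21.5 CPM. The T-type channel genes Cacna1g and Cacna1h differed by log2 1.41 and 1.68, with Cacna1h at 28.3 to 36.2 CPM in Bmp10-low libraries and at 190 CPM in WM4. Other members were Cpne5 (log2 2.91) and Rgs6, which limits muscarinic signalling in the heart (2.23). Vsnl1, another nodal gene, split the Bmp10-high set, with 13.8 and 13.4 CPM in WM5 and WM7 but 3.36 and 3.09 in WM4 and WM6, below the 4.33 to 4.45 CPM of the Bmp10-low set. Smoc2 and Kcne4 lay in the opposite direction with overlap (log2 -0.57 and -0.72). Markers of intracardiac neurons were mostly not analysed here, with 6 of 25 listed genes measured.

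**Figure D2:**
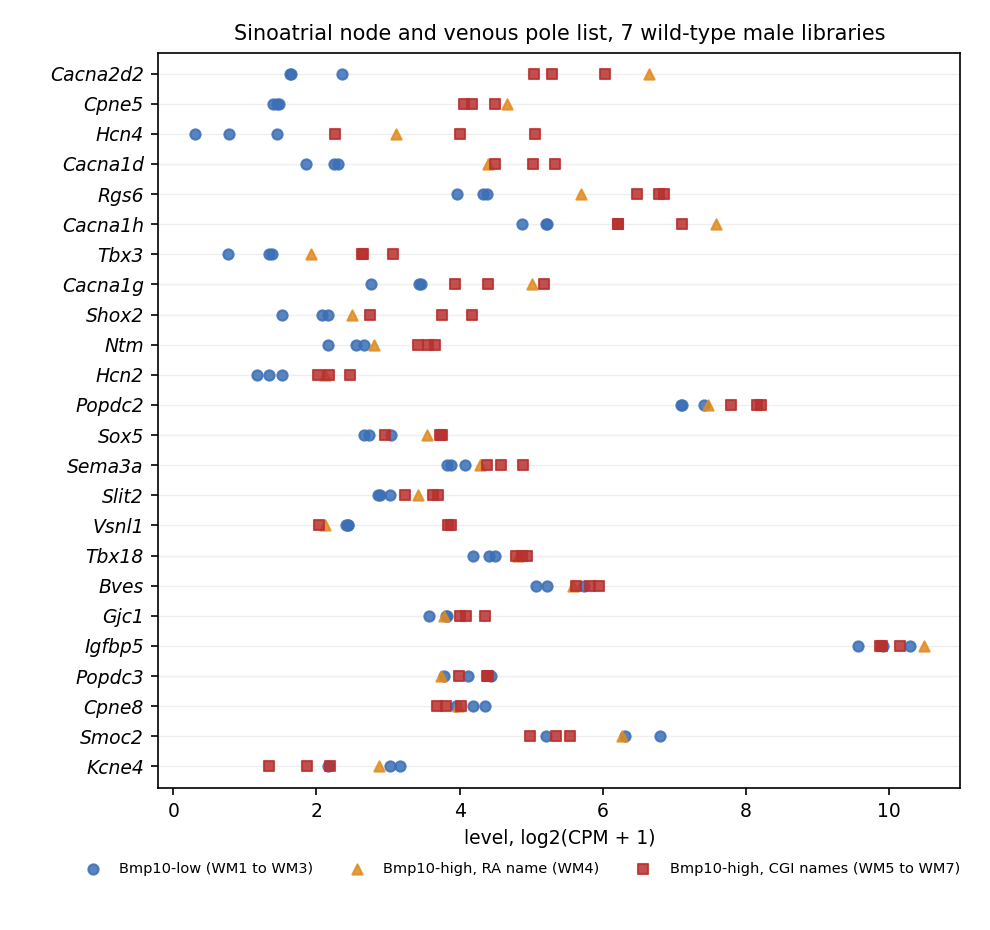
Levels as log2(CPM + 1) of 24 of the 25 measured members of the sinoatrial node and venous pole list in the 7 wild-type male libraries, ordered by the difference between the sets. From Cacna2d2 down to Popdc2 all circles (Bmp10-low) lie left of the other marks (Bmp10-high), and the last 2 members, Smoc2 and Kcne4, lie mostly the other way.

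Transcription factors of the atrium gave 4 of 26 members higher in Bmp10-high, against 3.29% of all genes, and 0 in Bmp10-low libraries, with a median of 0.41. Tbx5, which drives atrial and conduction gene programs, was at 48.8 to 54.8 CPM in the Bmp10-low set and at 154, 161, 129 and 93.9 CPM in WM4 to WM7. Tbx20 was at 65.3 to 85.6 CPM and at 221, 251, 224 and 183 CPM. Tbx2 and Hey1, a Notch target that restrains the atrioventricular program, differed by log2 1.15 and 1.23. Gata4, Mef2c and Prox1 overlapped between the sets.

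Of 29 potassium channel genes, 3 were higher in Bmp10-high libraries, against 3.29% of all genes, and 14 in all did not overlap upward, against 21.4%, with a median of 0.52. Kcnh2, the channel of the rapid delayed rectifier, was at 36.7 to 43.6 CPM against 106 to 147 CPM, and Kcnip2, a subunit of the transient outward current, at 11.3 to 14.4 against 30.0 to 43.9 CPM. Kcna1 was the third (log2 1.18). In the conduction and calcium handling list, 3 of 29 were higher, among them Ryr3 and the L-type channel gene Cacna1c. Cacna1c was at 31.9 to 38.6 CPM in Bmp10-low libraries and at 108 in WM4, 104 in WM5, 68.4 in WM6 and 52.1 in WM7. The connexin genes Gja1 and Gja5 and the calcium pump gene Atp2a2 of that list were not among the 3.

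The autonomic list, which also holds receptors of glucagon and adenosine and signal transducers, gave 5 of 17 members higher in Bmp10-high libraries, against 3.29% of all genes. They were the glucagon receptor gene Gcgr (log2 2.01), the adenosine receptor genes Adora1 (1.73) and Adora2a (1.01), the G protein gene Gnao1 (1.41) and the cyclase gene Adcy5 (1.14). No adrenergic or muscarinic receptor gene was among the 5. Gnao1 was close within each set, at 37.6 to 41.0 CPM and at 92.4 to 123 CPM. With median-ratio scaling the number was 3. Dbh, the enzyme that makes noradrenaline, was at 5.11 to 6.72 CPM in Bmp10-low libraries, 11.2 CPM in WM4 and 31.4 to 38.3 CPM in the CGI-named ones. Ret, a receptor of neurotrophic factors, lay the other way (4.09 to 4.55 CPM against 0.842 to 2.80 CPM).

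The secretory list, which holds the natriuretic peptides and their processing enzymes, gave 3 of 18 higher in Bmp10-high libraries, against 3.29% of all genes, Adm, the apelin receptor gene Aplnr (log2 2.32) and the protease gene Furin (1.16). With median-ratio or quantile scaling Furin was under 2-fold (0.99 in both) and the number was 2. Nppa and Nppb overlapped between the sets. Pam itself was at 3055, 3856 and 5334 CPM in WM1 to WM3 and at 4197 to 6245 CPM in the Bmp10-high set, with overlap. Of the BMP pathway, the genes higher in Bmp10-high libraries were the ligand gene Bmp5 (log2 1.63), the signal transducer Smad9 (1.65) and the target Atoh8 (1.09), and the antagonist Chrd was higher in Bmp10-low ones (-1.49). These are 1 of 16 ligand genes and 3 of 29 receptor, antagonist and target genes, near the 3.29% of all genes that were higher and the 0.533% that were lower. Atoh8 was under 2-fold with median-ratio scaling (0.93). The receptors of Bmp10 did not go one way. Acvrl1 was at 38.3 to 40.2 CPM in Bmp10-low and 25.4 to 29.9 CPM in Bmp10-high libraries, Bmpr2 at 102 to 134 and 211 to 233 CPM, and Eng overlapped.

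Genes higher in Bmp10-low libraries were fewer, and 72 of the 77 differed by less than 2-fold in WM4. The 5 that held in WM4 alone were Fos, Timp4, Lcn2, Hspa1b and Hmox1. Fos, an immediate early gene, was at 58.1, 93.6 and 154 CPM in WM1 to WM3 and at 39.2, 5.51, 17.7 and 3.72 CPM in WM4 to WM7. Timp4, a metalloproteinase inhibitor of the heart, was at 34.7, 37.2 and 51.8 CPM and at 19.4, 4.68, 1.12 and 7.88 CPM. The Bmp10-low values lay above all others in both genes, and the means of log2(CPM + 1) were higher by 2.95 and 2.60. The lipocalin gene Lcn2 was at 10.4 to 16.5 CPM against 2.38 to 4.85 CPM, and the heme oxygenase gene Hmox1 at 23.4 to 36.5 against 11.6 to 13.8 CPM. Immediate early genes as a list gave 4 of 18 higher in Bmp10-low libraries (Fos, Junb, Ier2 and Zfp36), against 0.533% of all genes. Between the 3 CGI-named libraries and the 4 of LA and RA names, 7 of the 18 were at least 2-fold lower, without overlap, in the CGI names. The share over all genes was 1.25% there.

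The name set therefore has to be read beside these genes. With WM4 counted together with WM1 to WM3, 301 genes (2.08%) were higher and 181 (1.25%) lower in the 3 CGI-named libraries by the same limits, and 256 of the 553 genes that followed the Bmp10 split were among them. Erythroid genes were lower in the CGI names in 7 of 11 members, and their summed level was 1797 to 3174 CPM in WM1 to WM3, 2148 in WM4 and 598 to 738 CPM in WM5 to WM7. The ventricular light chain gene Myl2 was at 2237, 2015 and 1196 CPM in WM1 to WM3, 1534 in WM4 and 31.0, 73.1 and 771 CPM in WM5 to WM7. Ucp1, the brown fat gene, was at 101, 71.4 and 5.58 CPM in WM1 to WM3, 63.1 CPM in WM4 and 0.826, 0 and 0 CPM in the CGI names. For these 3 measures WM4 thus lay within the range of WM1 to WM3, while it was Bmp10-high. For WM5 to WM7, Bmp10 level and name set cannot be told apart, and the part of blood, fat or ventricular tissue in the genes above was not tested. In bulk tissue, fewer cells of a type and less RNA per cell cannot be told apart either.

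Markers of other cells of the atrial wall mostly overlapped between the sets. Beside the counts below, 21.4% of all genes lay higher and 7.5% lower without overlap in Bmp10-high libraries. With the 2-fold limit these shares were 3.29% and 0.533%. Of 20 macrophage genes, the chemokine receptor gene Cx3cr1 was higher in Bmp10-high libraries (0.930 to 5.42 against 8.03 to 22.9 CPM) and Ccl8 higher in Bmp10-low ones (14.3 CPM or more against 0.140 to 7.65 CPM). The summed level of the 20 was 1724 to 2393 CPM in WM1 to WM3, 1976 in WM4 and 2142 to 2593 in WM5 to WM7. Of 27 fibroblast and matrix genes, the collagen gene Col6a3 and the Wnt modulator gene Sfrp2 were higher in Bmp10-high libraries as deposited (log2 1.13 and 1.08) and under 2-fold with median-ratio scaling (0.96 and 0.92), with summed levels of 5772 to 10277, 9920 and 8396 to 10095 CPM. Of 21 endothelial genes 3 lay higher and 3 lower without overlap in Bmp10-high libraries, and of these Aplnr alone by 2-fold. Of 15 smooth muscle and pericyte genes 4 lay higher and 1 lower without overlap, of which by 2-fold Notch3 alone, a receptor of mural cells, at 2.49 to 5.42 against 7.22 to 20.1 CPM. Of 22 epicardial genes 7 lay lower and 1 higher without overlap in Bmp10-high libraries. By 2-fold only the keratin genes Krt8 and Krt18 were higher in Bmp10-low libraries (Krt8 at 44.9 CPM or more against 24.5 to 36.0 CPM, Krt18 at 40.5 to 66.5 against 19.7 to 37.5 CPM). The summed level of the 22 was 3426 to 3932 CPM in WM1 to WM3, 3315 in WM4 and 2268 to 2523 in WM5 to WM7. Of 17 adipocyte genes 0 followed the split, with summed levels of 1014 to 3154, 2396 and 850 to 1067 CPM. Of 17 cell cycle genes, Mki67, Top2a and Cenpf were higher in Bmp10-high libraries (log2 1.67, 1.48 and 2.21), or 2 genes with median-ratio scaling. Only 1 of them also held in WM4 alone, and 4 of the 17 were higher in the CGI names, against 2.08% of all genes. Their summed level was 46.0 to 65.4 CPM in WM1 to WM3, 67.8 in WM4 and 104 to 168 in WM5 to WM7. Of 19 clock genes 0 lay apart by 2-fold. The part of these cells in the other differences was not tested.

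Of 22 oxidative phosphorylation genes 14 lay lower in Bmp10-high libraries without overlap, against 7.5% of all genes, and 1, Cox5a, by 2-fold (median -0.49). Of 24 fatty acid oxidation genes 10 lay lower without overlap and 0 by 2-fold (median -0.53), or 2 by 2-fold with median-ratio scaling. Sarcomere genes went both ways, with 8 of 25 lower and 2 higher without overlap (median -0.27). Myl3, a ventricular light chain, and Myh7b, a myosin heavy chain, were lower by 2-fold (log2 -1.72 and -1.43). The atrial light chains Myl7 and Myl4 were lower without overlap by log2 0.58 and 0.45, and sarcolipin (Sln) by 0.53. In WM4 the same genes lay at -0.45, -0.35 and -0.42 relative to the Bmp10-low mean, the same direction as over the whole set. Myh7, the slow myosin heavy chain, was the 1 sarcomere gene higher by 2-fold in Bmp10-high libraries, at 64.6 to 68.7 CPM against 472, 240, 113 and 83.9 CPM. Of 16 heat shock and folding genes 12 lay lower without overlap, 2 of them by 2-fold or 5 with median-ratio scaling, among them Hspa5, the main chaperone of the endoplasmic reticulum, at 1258 to 1612 CPM against 487 to 905 CPM.

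The 18 libraries outside wild-type males were then used to ask whether the same genes move with Bmp10 where it had not chosen the libraries. Each gene was fitted with limma on log2(CPM + 1), with a slope on log2(Bmp10 + 1) and terms for genotype with sex and for the library name set. At an adjusted p under 0.05, 4410 of 14456 genes (30.5%) rose with Bmp10 and 146 (1.01%) fell. The median slope of all genes was 0.04, and after median-ratio scaling, where it was near 0, the counts were 444 (3.07%) and 350 (2.42%). Of the 476 genes higher in Bmp10-high wild-type males, 269 (56.5%) rose and 0 fell, and of the 77 higher in Bmp10-low ones 23 (29.9%) fell and 1 rose. Slopes were positive for 96.0% of the 476 and 82.5% of all genes, and negative for 83.1% of the 77 and 17.5% of all genes. With median-ratio scaling 128 of the 476 (26.9%) rose and 27 of the 77 (35.1%) fell, and 0 of either list went the other way. Without WF10 and KM01, left out after seeing the data, 735 genes rose, 159 of the 476 among them, and 118 fell. Within the 11 libraries of high Bmp10, which span 4107 to 7597 CPM of it, 0 genes passed with limma, edgeR or DESeq2 (771, 997 and 653 at an unadjusted p under 0.05).

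**Figure D3:**
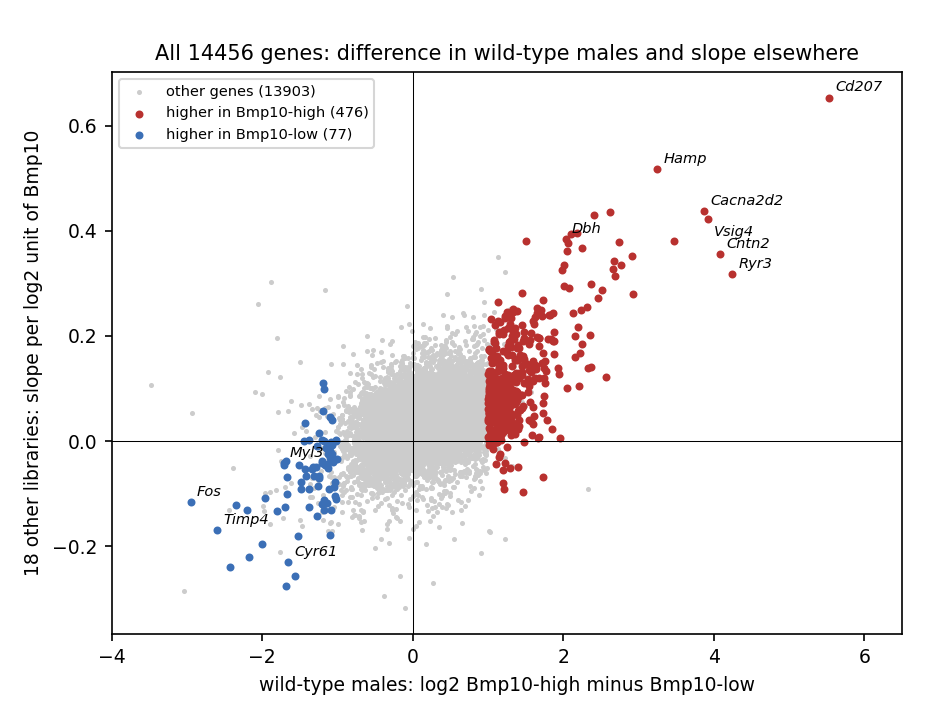
Difference between Bmp10-high and Bmp10-low wild-type males (horizontal, log2) against the slope on Bmp10 in the 18 other libraries (vertical, log2 per log2 unit of Bmp10), 1 point per gene. Red genes, higher in Bmp10-high wild-type males, lie mostly above 0 on the vertical axis, with Cd207 and Hamp highest, and blue genes lie mostly below 0.

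All 15 genes of largest upward difference rose with Bmp10 in the other libraries. Cd207 had the steepest slope, 0.65 ± 0.05 SE (limma adjusted p = 8.62e-07). It was at 0.445 to 9.15 CPM in the 7 libraries with Bmp10 under 1000 CPM and at 101 to 126 CPM in the 11 with more. Those ranges are far apart, and within the 11 the values of Cd207 differed by little. Hamp had a slope of 0.52 ± 0.05 SE (adjusted p = 6.29e-06), with 1.34 to 26.3 and 64.6 to 183 CPM, and Cacna2d2 one of 0.44 ± 0.04 SE (adjusted p = 6.29e-06), with 1.90 to 10.5 and 24.2 to 112 CPM. Adm was at 2.67 to 14.2 and 55.2 to 102 CPM (slope 0.38 ± 0.04 SE). KF17, the LA-named library with high Bmp10, was at 112 CPM for Cd207 and 62.0 CPM for Cacna2d2, and KF18, the RA-named one with lower Bmp10, at 8.97 and 9.15 CPM. In both libraries these 2 genes lay with the libraries of like Bmp10 level, not with those of like name.

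In 1 library of low Bmp10, Vsig4 lay nearly as high as in the libraries of high Bmp10. KM01, with Bmp10 at 46.5 CPM, had Vsig4 at 86.2 CPM, near the 97.7 to 126 CPM of the 11 libraries, while the other 6 with low Bmp10 were at 2.67 to 17.6 CPM. Ryr3 too was high there, at 41.3 CPM, where Cd207 was at 1.20 CPM and Hcn4 at 0.

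Of the sinoatrial node list, 16 of 25 genes rose with Bmp10 and 0 fell, against 30.5% of all genes that rose. The choice of this list with earlier results of these data known limits that comparison too. With median-ratio scaling the numbers were 9 and 0, against 3.07% of all genes that rose. The 9 included Shox2 (slope 0.25 ± 0.05 SE, limma adjusted p = 0.00219), Tbx3 (0.18 ± 0.03 SE, adjusted p = 0.00284), Hcn4 (0.34 ± 0.06 SE, adjusted p = 0.00233), Cacna1d and Cpne5. Cacna1g and Cacna1h did not pass with median-ratio scaling (adjusted p = 0.213 and 0.151). Hcn4 was at 0 to 9.35 CPM in the 7 libraries with low Bmp10 and at 5.20 to 38.7 CPM in the 11, so the ranges overlapped. The highest of the 7 was WF10, the least deep library. Vsnl1, which split the Bmp10-high wild-type males, rose (slope 0.31 ± 0.05 SE, adjusted p = 0.00103).

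Of the atrial transcription factors 11 of 26 rose and 0 fell, near the 30.5% of all genes that rose, or 4 and 0 with median-ratio scaling, where 3.07% of all genes rose. Hey1 passed both ways (slope 0.24 ± 0.03 SE, limma adjusted p = 7.82e-05), while Tbx5, Tbx20 and Tbx2 passed as deposited only (adjusted p = 0.114, 0.180 and 0.0994 with median-ratio scaling). Dbh rose (0.38 ± 0.04 SE, adjusted p = 5.46e-05), from 0 to 9.01 CPM in the 7 libraries to 19.5 to 70.2 CPM in the 11. So did Bmp5 (0.24 ± 0.03 SE), Smad9 (0.20 ± 0.04 SE) and Atoh8 (0.19 ± 0.03 SE), and Chrd did not pass as deposited (-0.08, adjusted p = 0.0776) but fell with median-ratio scaling (-0.13, adjusted p = 0.0250). Myostatin (Mstn), a ligand of the wider TGF-beta family, rose as well (0.24 ± 0.04 SE, adjusted p = 0.00157). Cacna1c, Myh7 and Furin, all higher in Bmp10-high wild-type males, had slopes of 0.03, 0.09 and 0.03 and did not pass (adjusted p = 0.633, 0.231 and 0.401). The cell cycle gene Mki67, higher there too (log2 1.67), had a slope of 0.01 (adjusted p = 0.936).

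**Figure D4:**
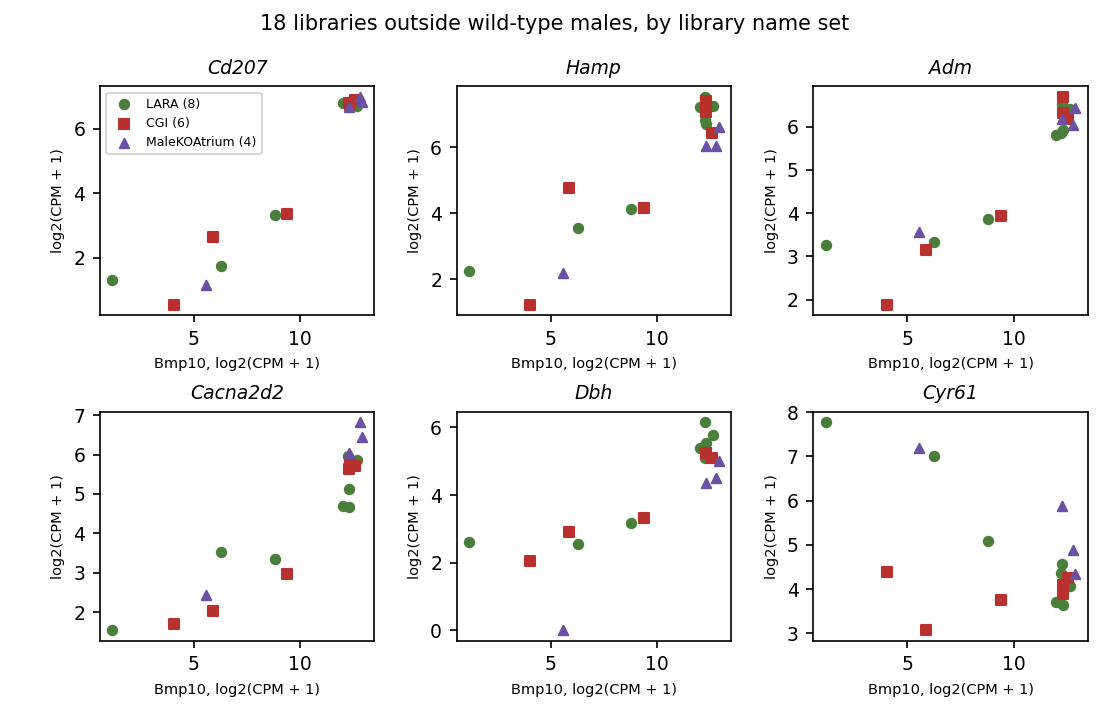
Levels of 6 genes against Bmp10, both as log2(CPM + 1), in the 18 libraries outside wild-type males, marked by library name set. Cd207, Hamp, Adm, Cacna2d2 and Dbh are high in all 11 libraries at the right, in each name set. Cyr61 is highest in KF14, KM01 and KF16, which have low Bmp10, but lowest in KF19, which also has low Bmp10.

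The number of genes that fell with Bmp10 was below that of genes that rose with limma on the deposited scale (146 and 4410). It was above it with edgeR (481 and 366) and DESeq2 (1049 and 564), which both rescale the libraries. With limma after median-ratio scaling the numbers were 350 and 444, and the parts of tool and scaling were not tested. The matricellular gene Cyr61 fell by 0.23 ± 0.05 SE per log2 unit (limma adjusted p = 0.00569) and was at 46.2, 63.9 and 98.1 CPM in WM1 to WM3, 42.6 in WM4 and 13.1 to 17.5 CPM in WM5 to WM7. In the 18 other libraries its ranges overlapped, at 7.39 to 218 CPM in the 7 with low Bmp10 and 11.5 to 57.5 CPM in the 11. KF14, KM01 and KF16 were the highest of the 7, and KF19 was the lowest of all 18. Timp4 (slope -0.17 ± 0.05 SE, adjusted p = 0.0274), Lcn2 (-0.13 ± 0.04 SE, adjusted p = 0.0238) and the chemokine gene Ccl8 (-0.24 ± 0.07 SE, adjusted p = 0.0159) also fell. Fos, Hspa1b and Hmox1 did not pass (adjusted p = 0.246, 0.440 and 0.838), and neither did Myl3 (0.654) or Cox5a (0.583). Junb did not pass as deposited (0.141) and fell with median-ratio scaling (adjusted p = 0.0401). Of 22 oxidative phosphorylation genes 3 rose and 3 fell as deposited, and 0 rose and 8 fell with median-ratio scaling. Of 24 fatty acid oxidation genes the numbers were 4 and 0, then 0 and 0. Of 16 heat shock and folding genes 0 rose and 1 fell both ways. Over all genes 30.5% rose and 1.01% fell as deposited, and 3.07% and 2.42% with median-ratio scaling. By smallest p the genes that fell began with 2310002L09Rik, Gm13715, the ficolin gene Fcna, Colq, Cmah, the chemokine gene Cxcl14, Pi16, Cyr61, Ace and Cd24a. Pi16, a gene of fibroblasts, was at 157 to 293 CPM in WM1 to WM3, 193 CPM in WM4 and 51.8 to 86.0 CPM in WM5 to WM7. Next to Cd207, Hamp, Cacna2d2 and Adm, the genes that rose with the smallest p were Cd300lg, BC022687, the monocarboxylate transporter gene Slc16a7, Alox8, Vit and the vitamin D receptor gene Vdr.

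A set of 66 of the 14456 genes was higher in Bmp10-high wild-type males with either scaling and also in WM4 alone, and rose with Bmp10 elsewhere with either scaling. A slope within the 11 libraries of high Bmp10 was not a condition of this set, and 0 genes passed there. Those named above in it are Cd207, Ryr3, Cntn2, Vsig4, Cacna2d2, Gsg1l, Hamp, Pvalb, Cpne5, Hcn4, Adm, Arpp21, Cacna1d, Slc26a10, Cxcl13, Rgs6, Gcgr, Gnao1, Smad9, Alox8, Vdr, BC022687 and others described next. In the opposite direction 22 of the 14456 genes met the same conditions but for the one on WM4, among them Timp4, Lcn2, Cyr61, Ccl8, Ret, Fcna and Cxcl14. The 66 had a median transcript length of 4605 bases. Further members, chosen after their values were seen, were the Wnt antagonist Sfrp5, the imprinted growth factor Igf2 and the Rab regulator Tbc1d1. Sfrp5 was at 9.10 to 11.4 CPM in WM1 to WM3 and at 57.3, 47.8, 28.6 and 69.6 CPM in WM4 to WM7. Tbc1d1 was at 54.6, 62.8 and 73.2 CPM and at 187, 284, 277 and 166 CPM, without overlap in either gene.

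The likeness to Bmp10 over the 18 libraries was described by Spearman's rho, with the caution that Bmp10 has a gap between 669 and 4107 CPM and that the libraries share depth differences. The 10 most alike were Arhgef6 (rho 0.93), Pfkfb2, Zfp691, Appl2, Ints10, A330102I10Rik, Hey1, 1700029J07Rik, Aldh3b3 and Crlf3 (rho 0.91). Within the 11 libraries of high Bmp10 rho was 0.82 for Arhgef6 and 0.70 for Hey1, and within the 7 of low Bmp10 it was 0.50 and 0.71. Cd207 had a rho of 0.83 over the 18, 0.29 within the 11 and 0.86 within the 7. In wild-type males Arhgef6 overlapped between the sets (52.4 to 79.2 against 59.9 to 88.8 CPM), and Appl2 and Aldh3b3 did not (Appl2 at 72.4 to 158 against 208 to 313 CPM, Aldh3b3 at 6.28 to 13.5 against 22.4 to 34.4 CPM). The most opposite were Cycs (rho -0.86), 2310002L09Rik, Plxdc2, AC121965.1, Pi16, Gm12338, Aldh3a1, Atp5l, Atp5j2 and Cox7b (-0.81), of which Cycs, Atp5l, Atp5j2 and Cox7b encode parts of the respiratory chain or ATP synthase.

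The library names were compared on their own in the 8 LA-named and RA-named libraries outside wild-type males, 3 and 5 of them, with genotype and sex as terms. Of 14457 genes 0 (0%) passed with limma, and 0 passed with edgeR and with DESeq2. At an unadjusted p under 0.05 there were 218, and the smallest adjusted p was 0.999. Bmp10 itself differed by log2 3.98 ± 2.37 SE (limma adjusted p = 0.999), with KF17 and KF18 against the other libraries of their names. The genes of smallest p, none of which passed, were Lmod3, Igha, Gm28979, Gatb and Tuba4a on the RA side and Thbs1, Nr4a3, Errfi1, 9930017N22Rik and Zfp36 on the LA side.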

How the data were processed

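Per the submitters' processing notes, the authors used HISAT2, HTSeq, DESeq2 and the mm10 build, with no versions given. The deposited values are CPM, although the header of the table names FPKM. All values (100%, tolerance 0.001 reads) were whole multiples of 1 step per library, so whole reads and depths were recovered. The design had assumed FPKM, and the log-scale test was kept, with the added 1 and the fold limit on the CPM scale. Of 14467 lines, 10 of 5 symbols listed more than once were left out, which left 14457 genes with a mean of at least 1.00 CPM. The deposited p-value was not used. Floors of 3 reads correspond to 0.370 to 1.34 CPM and cover counting error only.

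The wild-type male libraries were chosen by Bmp10, and the members and lists were chosen with earlier results of these data known. Levels were log2(CPM + 1). Tests used limma 3.58.1 in R 4.3.3 with Benjamini-Hochberg adjustment over all genes, with edgeR 4.0.16 and DESeq2 1.42.0 on the recovered reads as alternatives, and were tested on simulated data. Named genes are the 15 largest differences in each direction that also hold in WM4 at a mean of at least 5 CPM in the higher set, the 10 smallest p in each direction of a fit (5 where fewer than 5 pass), up to 4 members of each of 34 lists, and the 10 genes most like and unlike Bmp10. Other genes were named after their values were seen. Positions are from GENCODE M21 (GRCm38), which held 99.0% of symbols, and sequences from RefSeq on GRCm38.p6. Alternatives were other scalings, pseudocounts, filters, fold limits, tools, terms and left-out libraries. Some genes that count in the lists are not reported here by name.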

Additional observations from a re-analysis of the deposited data

Results flagged for a closer look

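Among the 122 named genes, 4 had a library far from the other 3 of the Bmp10-high wild-type males, and each time it was WM4. Chance alone flags about 1 in 20 groups of this size. Dbh was at 11.2 CPM in WM4 and at 31.4 to 38.3 CPM in the others, and Slc16a7 at 28.0 CPM and 35.6 to 35.9 CPM. Ucp1 was at 63.1 CPM in WM4 and at 0 to 0.826 CPM in the others, and Hba-a2 at 127 CPM and 13.4 to 18.4 CPM. WM4 is the 1 library of the 4 that has no CGI name, and the part of the name set in these values was not tested.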

How the results depend on the processing

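The counts of genes higher in Bmp10-high and in Bmp10-low wild-type males (476 and 77) became 279 and 146 with median-ratio scaling, 231 and 171 with quantile normalization, 176 and 28 with a pseudocount of 5, 1878 and 338 at a 1.5-fold limit and 42 and 7 at a 4-fold limit. With WM4 alone as the Bmp10-high set 20 genes were higher in Bmp10-low libraries. Leaving out 1 library gave 402 to 668 and 69 to 217 genes, with 188 without WM3 and 217 without WM4. The counts of genes that rose and fell with Bmp10 (4410 and 146) became 444 and 350 with median-ratio scaling, 505 and 302 with quantile normalization, 366 and 481 with edgeR and 564 and 1049 with DESeq2. Both edgeR and DESeq2 rescale the libraries, so tool and scaling changed together there. The counts were 2107 and 56 without the MaleKOAtrium libraries, and 95 genes fell with no name set term. Within the 11 libraries of at least 1000 CPM of Bmp10 they were 0 and 0, and there the slopes of Pvalb (-0.40), Atoh8 (-0.15), Cnmd (-0.0354) and Sfrp2 (-0.48) turned negative. Leaving out 1 library gave 2828 to 5702 and 79 to 420 genes, with 2928 and 420 without WF10, 2828 and 79 without KM01, and 88 that fell without KF21. Without both WF10 and KM01, a choice made after seeing the data, 735 rose, and 246 rose with median-ratio scaling too. The comparison of RA and LA names gave 0 to 1 calls when 1 library was left out, with the 1 without KF15. The cause of these shifts was not tested. No paired analysis was made, since the sources do not say which libraries come from the same mouse. LA11 (KF16) and RA11 (KF15) share a number and are both knockout females, while LA12 (KF17) is a female and RA12 (KM13) a male. Whether LA11 and RA11 come from 1 mouse was not tested, and the fits treat them as independent. The 15 genes of largest upward difference passed in 29 of 30 alternatives of the slope, all but the one within the 11 libraries. Of the 5 downward ones Fos passed in 2 of 30, Hmox1 in 1 of 30 and Timp4 in 25 of 30. Lcn2 passed in 23 of 29 and Hspa1b in 0 of 29.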
